A study of Mus musculus with 8 samples.

Results

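CD8 T cells carrying the transcripts of granzymes C, D, E and F made up 479 of 9973 CD8 T cells, or 4.80% (95% exact binomial interval 4.39 to 5.24%), among 53528 single cells from mouse Hepa1-6 tumours. Hepa1-6 is a mouse hepatoma line, and the labels describe 4 groups of tumours: WT tumours given PBS, WT tumours given PD1 antibody, Soat1-edited tumours given PBS and Soat1-edited tumours given PD1 antibody, all by intraperitoneal injection. For the edited tumours, sample titles say Soat1KO, whereas the genotype entry reads Soat1 knockdown. SOAT1 is the enzyme that esterifies cholesterol, and Soat1 itself is not among the 2000 genes analysed here. The cells of the expression table fall into 6 numbered sets, and nothing in the labels ties a set to a genotype or a treatment. The 4 groups were therefore not compared, each set is given by its own value, and no p-value is given anywhere.

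CD8 T cells were taken as cells whose mean value of Cd8a and Cd8b1, and whose mean value of Cd3d, Cd3g and Trbc2, were each at least 0.8 on the natural log scale of the table, with Cd4 below 0.5 and the mean of the macrophage genes C1qa and C1qb below 0.8. Members were the CD8 T cells whose mean of Gzmc, Gzmd, Gzme and Gzmf was at least 1. These 12 genes chose the cells, so their values describe the choice and are no finding. Because the same cells give every other gene, all differences below are descriptions of these cells. Cd8a and Cd4 are among the 12 genes, so their levels are no check of the label. Cd8a averaged 1.73 to 2.29 by set in members and 2.05 to 2.15 in the other CD8 T cells. Cd4 averaged -0.01 to 0.03 in members.

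Granzymes are serine proteases that killer lymphocytes store in cytotoxic granules and deliver into target cells through pores made by perforin. Granzyme B, cut from the product of Gzmb, triggers apoptosis in the target. In the mouse, Gzmc, Gzmd, Gzme, Gzmf and Gzmg lie beside Gzmb in 1 gene cluster and are known for their induction in activated CD8 T cells and NK cells under strong or prolonged interleukin 2 stimulation. The serpins of the Serpinb9 and Serpinb6 families are inhibitors of granule proteases, and Serpinb9 protects killer cells from their own granzyme B.

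Gzmc, Gzmd, Gzme, Gzmf and their neighbour Gzmg, which were found in overlapping cells, have closely related promoters, and that of Gzmb is different, so the 150 bases before each annotated start are shown. They are from RefSeq, build GRCm38.p6, chromosome 14, minus strand, and all 6 genes were matched by symbol. The GENCODE transcripts of Gzmd and Gzmf start at -15 and -10 relative to the RefSeq start, inside the stretch shown. The start of the Gzmb transcript in GENCODE was not found in the stretch searched. Capitals mark 2 motifs searched on both strands: TGTGGT, the core letters bound by RUNX factors, and TGACGTCA, the full cAMP response element bound by CREB and ATF factors. The motifs do not overlap here.
Gzmc (chr14:56234658-56234807): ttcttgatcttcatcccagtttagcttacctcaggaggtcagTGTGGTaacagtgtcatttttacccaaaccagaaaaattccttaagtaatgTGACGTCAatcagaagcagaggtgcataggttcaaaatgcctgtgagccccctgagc
Gzmd (chr14:56132594-56132743): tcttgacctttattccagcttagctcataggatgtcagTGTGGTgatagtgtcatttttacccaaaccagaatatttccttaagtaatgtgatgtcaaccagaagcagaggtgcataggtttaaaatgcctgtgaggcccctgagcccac
Gzme (chr14:56120626-56120775): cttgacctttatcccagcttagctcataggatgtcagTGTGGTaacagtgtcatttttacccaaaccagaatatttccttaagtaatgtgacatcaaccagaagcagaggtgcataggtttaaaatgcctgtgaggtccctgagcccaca
Gzmf (chr14:56211408-56211557): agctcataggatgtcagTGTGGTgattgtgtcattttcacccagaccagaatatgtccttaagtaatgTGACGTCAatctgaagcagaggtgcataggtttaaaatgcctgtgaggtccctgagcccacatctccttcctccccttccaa
Gzmg (chr14:56159580-56159729): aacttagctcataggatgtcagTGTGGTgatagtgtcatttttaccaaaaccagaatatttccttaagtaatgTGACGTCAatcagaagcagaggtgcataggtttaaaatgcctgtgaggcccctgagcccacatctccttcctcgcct
Gzmb (chr14:56262335-56262484): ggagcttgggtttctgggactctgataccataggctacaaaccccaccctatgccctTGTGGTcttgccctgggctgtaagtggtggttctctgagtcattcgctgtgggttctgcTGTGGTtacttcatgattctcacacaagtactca

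TGTGGT was found once in each of the Gzmc, Gzmd, Gzme, Gzmf and Gzmg stretches and at 2 places in that of Gzmb. It stood in 8.40% of 32851 promoter stretches of this length. TGACGTCA was found in the stretches of Gzmc, Gzmf and Gzmg, against 1.36% of all stretches, and was not in those of Gzmd, Gzme or Gzmb. Both motifs together stood in 24 of all stretches, or 0.0731%. A further motif searched but not marked, TGANTCA (AP-1, with N for any base), was found in the stretch of Gzmb alone, against 4.24% of all stretches. Aligned end to end, the stretches of Gzmc to Gzmg shared 63.4 to 94.7% of aligned positions pair by pair, with Gzmd and Gzme the closest, while Gzmb shared 42.9 to 52.9% with them. A match of letters is a description and not a site shown to be bound.

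Close relatives can also share reads. Of 401 windows of 100 bases, the length of the read that carries gene sequence, in the last 500 bases of each GENCODE transcript, 0 were found exactly in another of the 6 granzyme transcripts. The transcripts of Gzmd and Gzme were identical at 90.4% of aligned positions, the highest value of any pair, so reads with errors could still have been assigned to the wrong member. The split between single granzymes is less certain than their sum.

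The share of CD8 T cells that were members differed between sets. It was 2.38% in set 1 (25 of 1052 cells, interval 1.54 to 3.49%), 3.85% in set 2 (51 of 1323), 3.63% in set 3 (69 of 1901), 4.65% in set 4 (89 of 1913), 2.05% in set 5 (27 of 1318) and 8.84% in set 6 (218 of 2466, interval 7.75 to 10.0%). Set 6 lay above the other 5 sets, whose highest interval ended at 5.69%, and it held 218 of the 479 members. The intervals of sets 2, 3 and 4 overlapped, as did those of sets 1 and 5. Those of sets 1 and 5 also overlapped the intervals of sets 2 and 3, but not that of set 4. With no group known for any set, this order says nothing about genotype or treatment, and the intervals cover counting error only. The values of sets 2 to 6 were changed after the log step and those of set 1 were not. The threshold of 1 was thus applied to unlike values. The depth of the cells in sets 2 to 6 is unknown, and its part in the order was not tested.

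**Figure D1:**
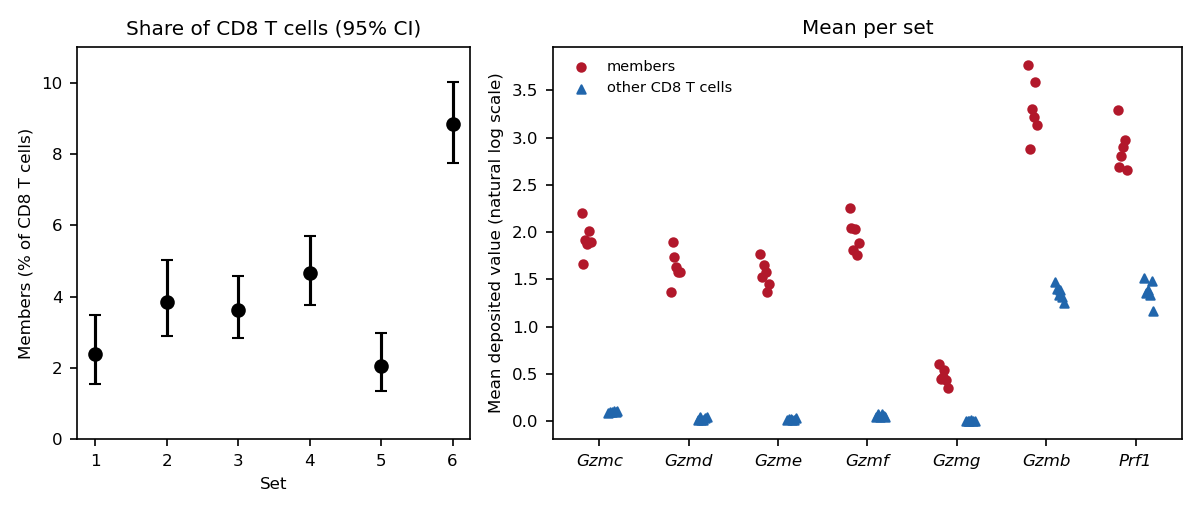
Left, members as a percentage of the CD8 T cells of each set, with 95% exact binomial intervals. Right, the mean deposited value of 5 neighbouring granzyme genes, Gzmb and Prf1 in members (circles) and other CD8 T cells (triangles), 1 symbol per set; set 6 has the highest share at 8.84%, and Gzmb and Prf1 do not overlap between the cell groups.

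Among the members, the 4 granzymes were combined in varied ways. All 4 reached a value of 0.5 in 215 members (44.9%), 3 did so in 179, 2 in 84 and 1 in a single cell. Gzmf was the highest of the 4 in 179 members, Gzmc in 162, Gzmd in 79 and Gzme in 59. The share with all 4 was 40.0% to 46.1% in the 6 sets, and the median of the granzyme mean was 1.47 to 1.68. Set 6, with the most members, lay within both ranges, at 45.9% and 1.58. The threshold cut a continuous range: 67 CD8 T cells lay between 0.9 and 1, and 62 between 1 and 1.1. Median Gzmb was 3.00 just outside and 2.99 just inside, median Prf1 2.07 and 2.59, and median Tox 1.03 and 0.47.

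Whole UMIs, the counted molecules, could be recovered for set 1, where every value was ln(1 + UMIs per 10000). Over all 1052 CD8 T cells of that set, 95 had a Gzmc UMI, 26 a Gzmd UMI, 36 a Gzme UMI, 54 a Gzmf UMI, 11 a Gzmg UMI and 683 a Gzmb UMI. The overlap was partial. Of the 26 cells with Gzmd, 18 also had Gzme, 17 Gzmc and 12 Gzmf, and all 26 had Gzmb. Starting from the wider genes, most cells with Gzmc lacked each of the others: of these 95 cells, 17.9% had Gzmd, 23.2% Gzme and 33.7% Gzmf. Of the 54 cells with Gzmf, 22.2% had Gzmd, 38.9% Gzme and 59.3% Gzmc. Of the 95 cells with Gzmc, 87 had Gzmb, whereas of the 683 cells with Gzmb only 12.7% had Gzmc. Gzmb was thus the wider transcript, and most cells with a C to G granzyme also held it. Detection also follows the depth of each cell, and its part in these overlaps was not tested.

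Background from free RNA was read in the hepatoma cells of set 1. A Gzmc UMI was found in 3.04% of 3749 hepatoma cells at a median of 21031 UMIs per cell, against 88.0% of members at a median of 8992 and 7.11% of the other CD8 T cells at a median of 5168. With every cell thinned to 1000 UMIs, these shares were 0.107%, 64.0% and 1.75%. Gzmd, which had a UMI in 60.0% of members, had one in 1.07% of the other CD8 T cells and in 1.47% of hepatoma cells, the hepatoma cells being the deeper. At 1000 UMIs the Gzmd shares were 36% of members, 0.292% of the other CD8 T cells and 0.0800% of hepatoma cells, and with all UMIs the summed levels were 1304, 3.27 and 0.55 CPM. Thinned first and then chosen by the same rule, 1.17% of the CD8 T cells of set 1 were members rather than 2.38%, so the share depends on depth.

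The granzyme level was also met by cells outside the CD8 T cells, among NK cells at a like share. Cells were called NK cells where the mean of Ncr1, Klrb1c and Klre1 was at least 0.8 and the T cell mean below 0.5, CD4 T cells where the T cell mean was at least 0.8, Cd4 at least 0.5 and the CD8 mean below 0.5, and hepatoma cells where the mean of Afp, Alb, Apoa1 and Ttr was at least 2 and the T cell mean below 0.5. The same granzyme threshold was met by 608 cells in all, and 78.8% of them were CD8 T cells. It was met by 10 of 286 NK cells (3.50%, interval 1.69 to 6.34%), by 24 of 992 CD4 T cells (2.42%, interval 1.56 to 3.58%) and by 1 of 16620 hepatoma cells. The intervals of the NK and CD8 T shares overlapped, over all cells and in each set. By set, the NK share was 7.69, 3.28, 4.76, 0, 7.14 and 4.48% of 21 to 83 NK cells, above the CD8 T share in sets 1, 3 and 5 and below it in sets 2, 4 and 6. No NK cell of the 83 in set 4 met the threshold, with an interval up to 4.35%. Of the 94 remaining cells, 58 met the T cell threshold, 12 of them with both Cd4 and Cd8, and 15 met the C1qa and C1qb threshold. In set 1, a single cell carried all the Gzmd, Gzme, Gzmf and Gzmg UMIs of the 26 NK cells.

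Gzmb and Prf1 were the 2 genes outside the rule that differed most between members and the other CD8 T cells of the same set. A gene was called different where its mean was at least 0.25 natural log units higher, or lower, in members in all 6 sets. Of 1988 genes outside the rule, 35 were higher (1.76%) and 4 lower (0.201%), and the median difference over all genes was near 0. Within 1 set, a difference of 0.25 could be reached with no change in summed CPM. In set 1, Cenpa differed by 0.39 at a CPM ratio of 1.00 and Icos by 0.25 at 1.01. Neither gene was called over the 6 sets. By sign alone, 258 genes (13%) were higher and 204 (10.3%) lower in all 6 sets. The lists with the most genes called higher were those of granule and serpin genes, glycolysis and metallothionein genes, and receptors of activated T cells. The genes called lower were Ccl5, Hspa1b, Tox and Xcl1. Sets 2 to 6 hold values that were changed after the log step, with values below 0 in every cell checked, so differences there are differences of adjusted values and not of expression.

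**Figure D2:**
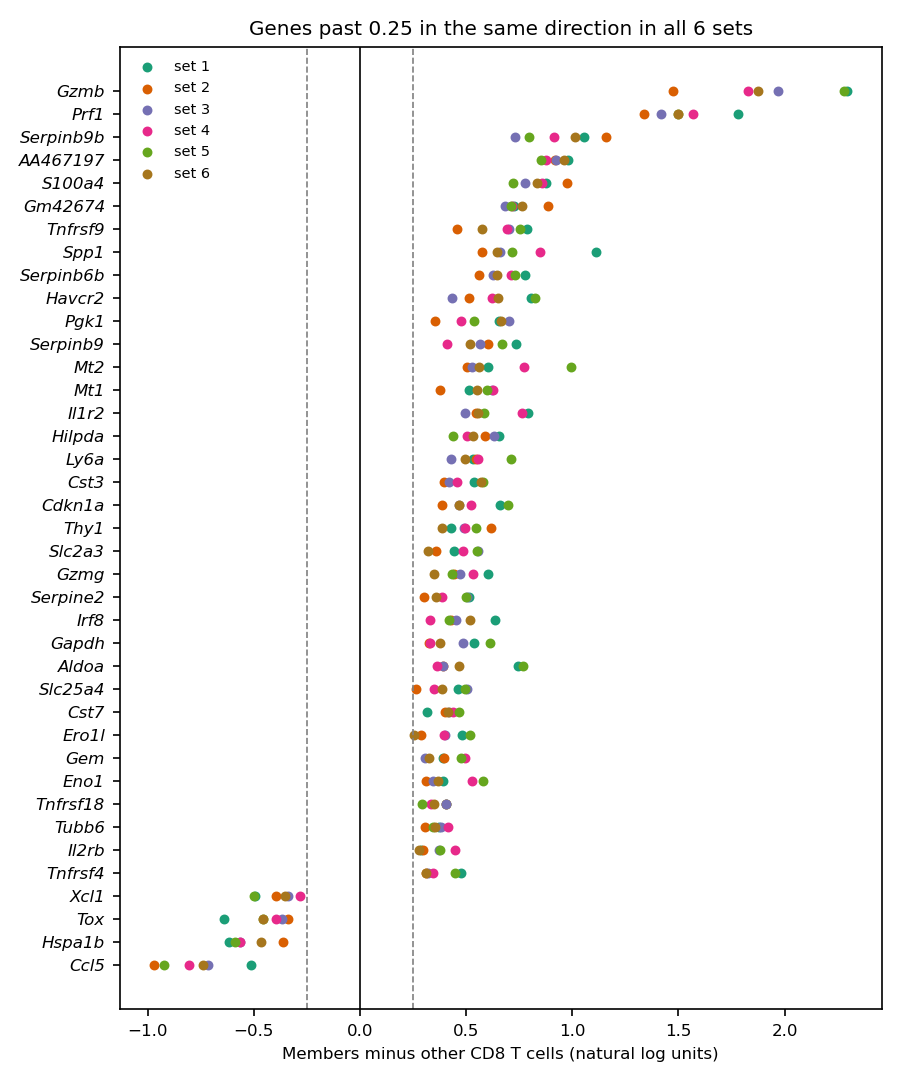
Difference in mean deposited value between members and other CD8 T cells (natural log units) for the 39 genes past 0.25 (dashed lines) in all sets, 1 point per set. Gzmb and Prf1 stand farthest right, at 1.48 to 2.30 and 1.34 to 1.78, and Ccl5 farthest left, at -0.97 to -0.51.

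Of 15 other granule genes in the table, 7 were higher in members and none lower, with a median difference of 0.20. Gzmb averaged 3.77, 2.88, 3.31, 3.22, 3.59 and 3.13 in members of sets 1 to 6 and 1.48, 1.40, 1.34, 1.39, 1.31 and 1.25 in the other CD8 T cells. Every set of members lay above every set of the others, with no overlap. Prf1, which encodes perforin, averaged 3.29, 2.70, 2.81, 2.90, 2.98 and 2.66 in members and 1.51, 1.36, 1.39, 1.34, 1.48 and 1.16 in the others. A Prf1 value of at least 1 was held by 92.6 to 100% of members by set and by 62.0 to 69.7% of the others.

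Gzmg, the next granzyme of the cluster and no part of the rule, averaged 0.35 to 0.61 in members and at most 0.01 in the other CD8 T cells. Serpinb9b averaged 0.98 to 1.38 against 0.18 to 0.25, Serpinb9 0.93 to 1.49 against 0.51 to 0.76, and Serpinb6b 1.61 to 1.91 against 0.96 to 1.13. The protease genes and these inhibitors were thus higher in members by their means. Serpinb9b was at 1 or more in 37.7 to 64.7% of members by set and 9.60 to 13.4% of the others. Whether single cells held proteases and inhibitors together was not tested. Cst7, which encodes the cathepsin inhibitor cystatin F, differed by 0.32 to 0.47. Gzma and Gzmk, granzymes of other T cell states that lie elsewhere in the genome, did not pass: Gzma differed by -0.04 to 0.40 and Gzmk by -0.10 to 0.08. In the UMIs of set 1, Gzma was lower by the fold, at a ratio of 0.33 (0.20 to 0.52), with 72.2% of its 18 member UMIs in 1 cell. A Gzma UMI was nevertheless found in 20% of members and 10.7% of the others. The cathepsin genes Ctsw and Ctsl of the same list were lower by the fold too. Of the 15 genes of that list, 5 were higher and 3 lower by the fold, against 4.6% and 11.7% of all tested genes.

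The UMIs of set 1 gave the size of these differences as ratios of summed CPM, the usual depth-scaled count, with all UMIs of the cells as the total. The 25 members held 283720 UMIs and the 1027 other CD8 T cells 7041725. Gzmb stood at 7345 CPM in members and 953 CPM in the others, a ratio of 7.71 (95% exact interval 7.34 to 8.10, counting error only). A single member held 33.7% of the members' Gzmb UMIs, and without that cell the ratio was 5.60 (5.28 to 5.93). The median over cells was 3715 CPM against 405 CPM, and every member had at least 1386 CPM, whereas 64.1% of the others had any Gzmb UMI. Prf1 stood at 4173 against 713 CPM, a ratio of 5.86 (5.49 to 6.24), and Serpinb9b at 455 against 79.5 CPM, a ratio of 5.72 (4.68 to 6.94). Gzmg had 204 UMIs in 7 members and 4 UMIs in the others, with 54.4% of the 204 in 1 cell.

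By a rule of at least 1 log2 unit (a doubling) with 5 CPM added to both sides, 49 of 1065 genes with 20 or more UMIs were higher in the members of set 1 (4.6%) and 125 lower (11.7%). The lower genes included 65 with 0 UMIs in members, and their number followed the added value, as is given with the other settings. All 35 genes higher in the 6 sets had a ratio above 1 in set 1, and 21 of them passed the fold. Of the 4 lower genes, 3 did so, and Ccl5 was just short of the fold at a ratio of 0.50. Set 1 is itself among the 6 sets, and its UMIs come from the same values in the same cells. The shared direction was therefore nearly fixed in advance and is no separate support.

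**Figure D3:**
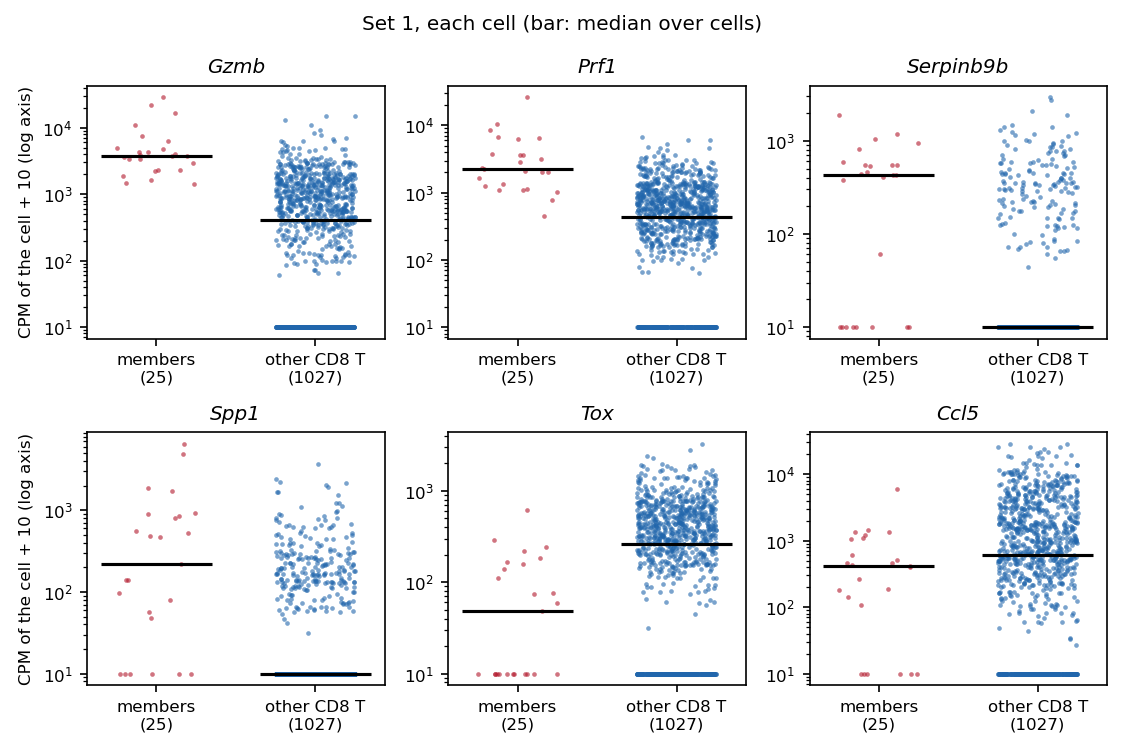
CPM of each CD8 T cell of set 1, with 10 CPM added on a log axis, for 25 members and 1027 other CD8 T cells; bars are medians over cells. All 25 members have Gzmb and Prf1, while for Serpinb9b, Spp1, Tox and Ccl5 cells at 0 (drawn at 10) occur in both groups.

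The second group of genes was glycolysis, hypoxia and metallothionein genes: 8 of 14 were higher in members, none lower, and the median difference over the list was 0.39. Pgk1, Aldoa, Eno1 and Gapdh, all enzymes of glycolysis, were higher by medians of 0.60, 0.43, 0.38 and 0.43. Slc2a3, a glucose transporter, differed by 0.32 to 0.56 and Ero1l, an oxidase of the endoplasmic reticulum, by 0.26 to 0.52. Mt1 and Mt2, the metallothioneins that bind zinc and copper, averaged 1.08 to 1.37 and 0.96 to 1.49 in members against 0.70 to 0.76 and 0.46 to 0.59 in the others, and the groups did not overlap. Outside the list, Hilpda, a hypoxia-inducible lipid droplet protein, differed by 0.44 to 0.65.

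In set 1 the ratios were 1.64 for Pgk1, 1.44 for Gapdh, 1.88 for Aldoa, 3.02 for Mt2 and 2.78 for Mt1. The metallothionein ratios rested in part on the member with the most Gzmb: without it they were 1.78 for Mt2 (1.41 to 2.21) and 1.83 for Mt1 (1.48 to 2.23). Hepatoma cells of set 1 themselves held 865 CPM of Mt2, more than the 564 CPM of members, 722 CPM of Pgk1 and 409 CPM of Hilpda. The hepatoma marker list, 7 genes with none called, averaged 0.65 to 0.75 by set in members and 0.63 to 0.69 in the other CD8 T cells. Its part in the metallothionein and glycolysis differences was not tested.

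The third group was receptors of activated T cells. Of 8 costimulatory receptors, 3 were higher: Tnfrsf9 (4-1BB) averaged 1.58 to 1.93 in members against 1.01 to 1.15, Tnfrsf4 (OX40) 0.55 to 0.76 against 0.22 to 0.29, and Tnfrsf18 (GITR) 0.87 to 1.01 against 0.54 to 0.61. Each of the 3 was higher in every set of members than in any set of the others. Their ratios in set 1 were 2.43 for Tnfrsf9, 2.45 for Tnfrsf4 and 1.56 for Tnfrsf18. Of 7 genes of the interleukin 2 response, Il2rb, the receptor's beta chain, was called, at 2.26 to 2.39 against 1.94 to 2.05. The set 1 ratio of Il2rb was 1.26 (1.12 to 1.41). Il2ra, the alpha chain that makes the high-affinity receptor, differed by 0.23 to 0.58 and missed the call by set 2 alone. In set 1 its ratio was 5.39 (4.13 to 6.96), with a UMI in 40.0% of members and 16.9% of the others.

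Of 16 inhibitory receptors and exhaustion regulators, Havcr2 was higher and Tox lower. Havcr2 encodes TIM-3, a receptor of terminally differentiated T cells, and averaged 1.56, 1.22, 1.17, 1.35, 1.52 and 1.32 in members against 0.66 to 0.75 in the others. Tox encodes a nuclear factor needed for the exhausted state, and averaged 0.47, 0.71, 0.68, 0.64, 0.59 and 0.55 in members against 1.01 to 1.11. A Havcr2 value of at least 1 was held by 59.4 to 77.8% of members and 38.7 to 43.9% of the others, and a Tox value of at least 1 by 20 to 34.8% and 45.9 to 58.0%. These 2 genes, often found together in exhausted T cells, went in opposite directions. Pdcd1, which encodes PD-1, did not pass, with differences of -0.01 to 0.18, and it was at 1 or more in 91.3 to 96.3% of members and 82.7 to 88.0% of the others.

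Chemokines separated by gene. Ccl5, a chemokine of effector and memory CD8 T cells, averaged 1.46, 1.11, 1.36, 1.35, 1.17 and 1.04 in members against 1.97, 2.08, 2.08, 2.16, 2.09 and 1.78 in the others. Xcl1, the ligand that draws XCR1 dendritic cells, averaged 0.05 to 0.19 against 0.42 to 0.57. Both were lower in every set. Xcl1 had 4 UMIs in the members of set 1, all in 1 cell, at 14.1 CPM against 293 CPM, a ratio of 0.05 (0.01 to 0.12). The other 5 of the 7 chemokines were not called: Ccl4 differed by -0.52 to 0.15, and Ccl9 by 0.09 to 0.47, with a ratio of 6.51 (4.27 to 9.68) in set 1. Of the 7 chemokines, Ccl9 was higher by the fold in set 1, and Xcl1, Ccl1 and Cxcl10 were lower, against 4.6% and 11.7% of all tested genes.

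Of 14 cytokine genes, Spp1 was called higher. It encodes osteopontin, a secreted phosphoprotein, and averaged 1.39, 0.84, 0.92, 1.12, 0.98 and 0.88 in members against 0.24 to 0.28. In set 1 it stood at 1008 against 82.1 CPM, with 46.5% of the members' UMIs in 1 cell and a UMI in 76.0% of members and 24.0% of the others. Hepatoma cells of that set had 156 CPM of Spp1, below the members. Thinned to 1000 UMIs, 16% of members and 6.23% of the others had an Spp1 UMI. Ifng, the effector cytokine, did not pass: it differed by -0.17 to 0.28, was at 1 or more in 70.8 to 81.5% of members and 69.5 to 75.4% of the others, and had a ratio of 0.66 (0.56 to 0.78) in set 1. Of 12 cytokine genes tested in set 1, Spp1 was higher by the fold and Tnf, Lta and Tnfsf8 lower, against 4.6% and 11.7% of all tested genes. Tnf had 3 UMIs in members, at a ratio of 0.31 (0.06 to 0.93). Without the member with the most Gzmb, the interval of Tnf was 0.07 to 1.02. Over the 6 sets Tnf differed by -0.10 to 0.01. For Lta, 0 UMIs in members allow up to 10.6 CPM (3 UMIs), above the 7.67 CPM of the others.

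Several genes outside the lists of pathways were among the 35. Il1r2, the decoy receptor for interleukin 1, averaged 0.63 to 0.93 against 0.08 to 0.20, with a ratio of 8.91 (7.0 to 11.3) in set 1. AA467197 averaged 1.23 to 1.36 against 0.31 to 0.43. S100a4, a calcium-binding protein of migrating cells, averaged 2.65 to 2.88 against 1.82 to 2.02. Gm42674, another gene called higher, overlaps S100a4 by 2115 bases on the same strand in GENCODE M21, so their reads may not be told apart. Cdkn1a, the cell cycle inhibitor p21, differed by 0.39 to 0.70, Irf8, a transcription factor, by 0.33 to 0.63, and Serpine2, a secreted protease inhibitor, by 0.30 to 0.51.

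Other programs showed few calls over the 6 sets. Of 6 heat shock genes, Hspa1b was lower, at 1.01 to 1.42 in members against 1.60 to 1.78, and 4 of the 6 were lower by sign in all sets, with a median difference of -0.24. Hspa1a missed the call through set 6 alone, at differences of -0.59 to -0.23. Ly6a (Sca-1) was the gene called among 11 interferon response genes, at 1.26 to 1.51 against 0.75 to 0.93, and S100a4 the one called among 12 genes of residency and homing. By the UMIs of set 1, Ly6a was higher by the fold and Ifit1, Ifit2 and Ifit3 lower, of 11 interferon response genes tested. Of all tested genes, 4.6% were higher and 11.7% lower. None was called among 11 naive, memory and progenitor genes, 20 NK receptors, 6 immediate early genes or 2 T cell receptor variable genes, Trbv2 and Trbv3. In the UMIs of set 1, 5 of 8 tested genes of the naive, memory and progenitor list passed the fold, in both directions. Of these, 2 were higher and 3 lower, against 4.6% and 11.7% of all tested genes. Il7r, the interleukin 7 receptor, and Ly6c2 were higher, at ratios of 2.32 (1.47 to 3.49) and 2.80 (2.26 to 3.43), and Ccr7, Cd7 and Dapl1 were lower with 0 UMIs in members. For Ccr7, the receptor that leads naive T cells to lymph nodes, 0 UMIs allow up to 10.6 CPM (3 UMIs), against 38.6 CPM in the others, whereas Dapl1, at 6.53 CPM in the others, lay under that limit. Over the 6 sets, Il7r differed by 0.08 to 0.28, Ly6c2 by 0.18 to 0.75 and Ccr7 by -0.09 to 0.01.

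Whether members cycled more often than the other CD8 T cells depended on the threshold. Cells whose mean of Mki67, Top2a, Birc5 and Stmn1 was at least 1 made up 35.3% of members (31.0 to 39.7%) and 31.2% of the others (30.3 to 32.2%). The share was above that of the others in sets 1, 2, 3 and 6 and below it in sets 4 and 5, at 48.0, 27.5, 43.5, 21.3, 18.5 and 40.8% in members of sets 1 to 6. At a threshold of 0.5, members were above the others in all 6 sets, at 58.9% against 43.9% over all cells, and at 1.5 they were above in sets 1, 3 and 6 and below in sets 2, 4 and 5, at 24.2% against 22.8%. None of 16 S phase genes and 25 G2 and M phase genes was called, with median differences of 0.10 and 0.05. In the UMIs of set 1, their median log2 ratios were -0.02 and -0.39, against -0.18 over all tested genes. By the fold, 2 of the 25 G2 and M phase genes, Cenpf and Kif11, were lower there, against 11.7% of all tested genes. Among noncycling cells alone, in the 5 sets with 20 or more such members, 34 genes were higher (1.71%) and 6 lower (0.302%), and 32 and 4 of these were among the 35 and 4. In the 2 sets with enough cycling members, 20 were higher (1.01%) and 4 lower (0.201%).

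Genes followed the granzyme level on both sides of the threshold. The CD8 T cells were split by their granzyme mean into 5 bins, from below 0.1 to 2 and more, holding 8112, 976, 406, 350 and 129 cells, and only bins of 20 or more cells in a set were read. The uppermost bin could be read in sets 4 and 6, and the one below it in every set but set 1. Gzmb, as the median over the sets read, was 1.22, 2.27, 2.62, 2.96 and 3.74 from the lowest to the uppermost bin, and Prf1 was 1.29, 1.90, 2.06, 2.55 and 3.21. The largest step of Gzmb lay between the first bins, well below the threshold. Tox was 1.06, 0.99, 0.79, 0.71 and 0.48, and Xcl1 was 0.55, 0.43, 0.27, 0.18 and 0.09. Spp1 stayed at 0.24, 0.39 and 0.42 below the threshold and was 0.81 and 1.48 above it, and Il1r2 was 0.11, 0.26, 0.32, 0.69 and 1.08. Ccl5 went from 2.11 in the lowest bin to 1.59, 1.73, 1.33 and 1.39, with no steady order.

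**Figure D4:**
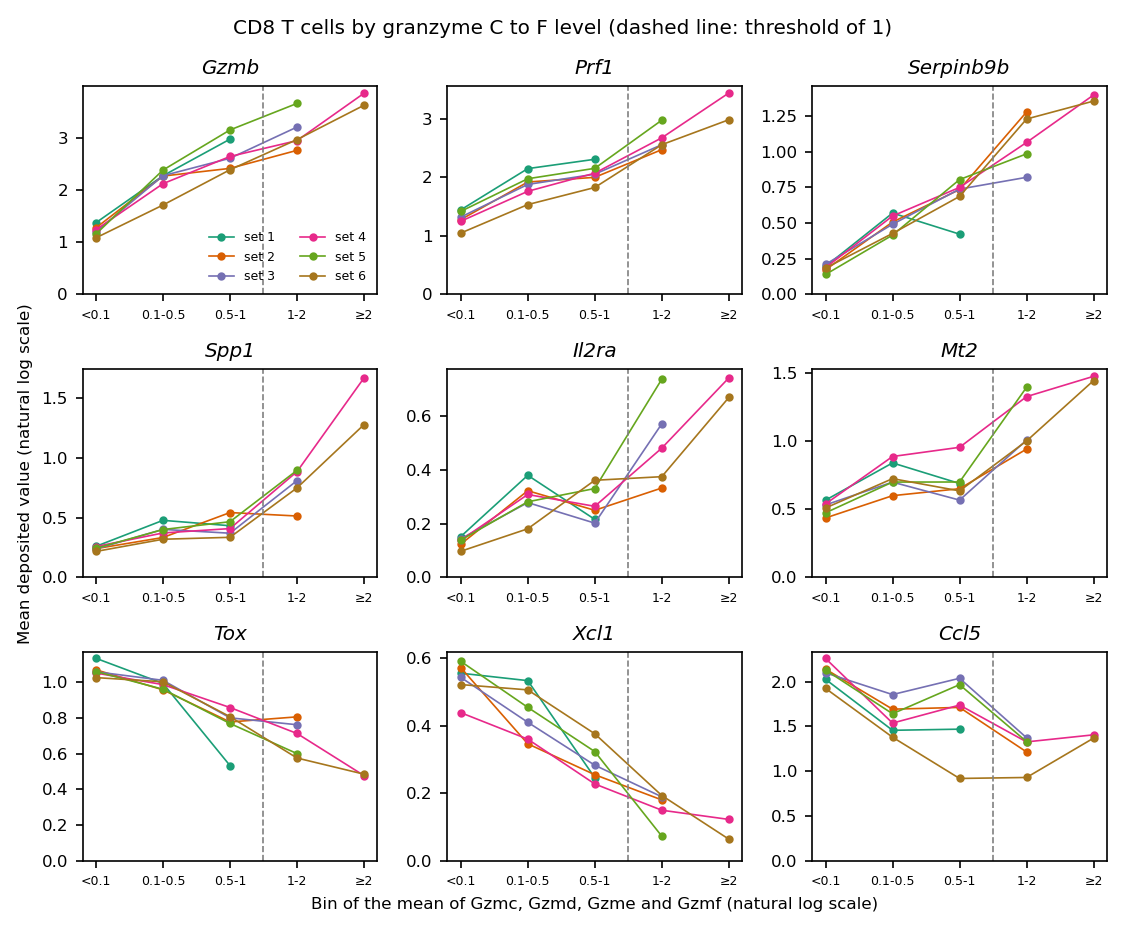
Mean deposited value (natural log scale) of 9 genes in CD8 T cells binned by the mean of Gzmc, Gzmd, Gzme and Gzmf, 1 line per set; bins under 20 cells in a set are not drawn, and the dashed line is the threshold of 1. Gzmb and Prf1 are higher in each bin than in the one before, by the median over sets, and Tox and Xcl1 lower.

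Members were then set against CD8 T cells that were already high in Gzmb, which leaves the C to F granzymes as the chosen difference. Others with Gzmb at or above the lower quartile of the members of their set numbered 1669, and Gzmb then differed by -0.16 to 0.17. Against them, 15 genes were higher (0.755%), all among the 35, and 2 were lower (0.101%). Prf1 still differed by 0.76 to 1.21, Serpinb9b by 0.55 to 1.09, AA467197 by 0.53 to 0.83, S100a4 by 0.43 to 0.77, Spp1 by 0.55 to 0.98, Il1r2 by 0.45 to 0.74 and Tnfrsf9 by 0.36 to 0.82. Gzmg, Mt1, Mt2, Hilpda, Cdkn1a, Serpine2, Tnfrsf4 and Gm42674 completed the 15. The glycolysis enzymes Pgk1, Aldoa, Eno1 and Gapdh, and Havcr2, no longer passed, with Havcr2 at 0.19 to 0.60.

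Ccl5 differed more against the cells high in Gzmb than against all others, by -1.41 to -0.84, and Ccl4 now passed, by -0.76 to -0.32. Tox did not pass, at -0.46 to -0.04, nor did Xcl1, at -0.24 to -0.02, with medians over sets of 0.62 in members and 0.80 in the Gzmb-high others for Tox and 0.14 and 0.28 for Xcl1. With both groups limited to noncycling cells with Havcr2 of at least 1, there were 242 members and 2865 others, and the 4 sets with 20 or more such members were read. Of the genes, 30 were higher (1.51%) and 8 lower (0.402%). The lower genes were Ccl5, Ccl4, Tox, Hspa1a, Hspa1b, Hsph1, Nr4a2 and Sla. Tox there differed by -0.61 to -0.32, and Nr4a2, a nuclear receptor induced by T cell receptor signals, by -0.64 to -0.34.

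**Figure D5:**
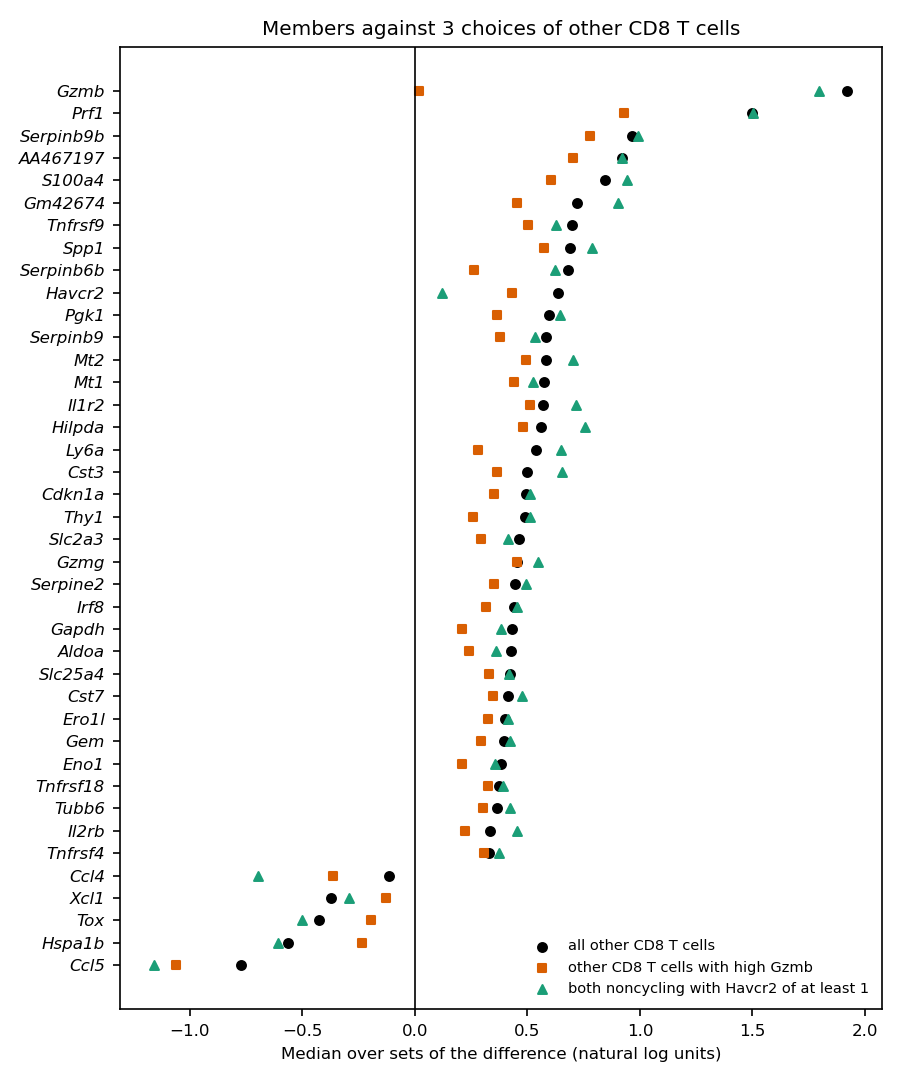
Median over sets of the difference in mean deposited value (natural log units) between members and all other CD8 T cells (circles), those with high Gzmb (squares), and, within noncycling cells with Havcr2 of at least 1 in both groups, the others (triangles). Prf1 stays near 0.93 and Ccl5 near -1.06 against the cells with high Gzmb, where Gzmb itself is at 0.02.

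Depth and other cell types were read beside these results. Members of set 1 had a median of 8992 UMIs per cell (1861 to 26159) and the other CD8 T cells 5168 (1002 to 58521), and the part of this difference in the values was not tested beyond the thinned ones. No gene of the marker lists of CD4 T cells, regulatory T cells, NK cells, gamma delta T cells, hepatoma cells, macrophages, neutrophils, dendritic cells, B or plasma cells, fibroblasts or mast cells was called in either direction. The 8 NK genes averaged 0.23 to 0.32 by set in members and 0.21 to 0.27 in the others, and the 4 macrophage genes 0.05 to 0.06 and 0.03 to 0.05. Some lists did not overlap: gamma delta T genes averaged 0.052 to 0.115 in members against 0.120 to 0.178. B or plasma genes averaged 0 to 0.014 against 0.033 to 0.040, and mast or basophil genes 0.007 to 0.031 against at most 0.003. Among marker genes past the fold in set 1 were Il2ra, at a ratio of 5.39, Ikzf2, at 0.30, and Tcrg-C2, at 0.37. Genes of hepatoma or other lineages were held by 25.9% of members and 26.8% of the others, and leaving those cells out gave 37 genes higher and 4 lower. Scrublet, a doublet caller run on set 1, marked 91 of 9370 cells (0.971%), 10 of them among the other CD8 T cells and 0 among members. The names of the cells are numbers and not barcode sequences, so shared barcodes between sets could not be counted.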

How the data were processed

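Single-cell 3' RNA libraries of dissociated tumours were made and sequenced by the authors on the DNBelab C platform, per the labels. Per the submitters' processing notes reads were aligned with STAR 2.7.2b, and both GRCh38, a human build, and mm10 are named; which build the table used is not given in the sources used here. The deposited table holds 2000 genes and 53528 cells as natural log values, and no column could be matched to a labelled sample, which leaves 53528 columns without a known sample. In set 1 the values are ln(1 + UMIs per 10000), and whole UMIs were recovered for 100% of values within 0.01 of a count; in sets 2 to 6 every cell checked held values below 0, as batch-integrated values do. The table's genes hold 15.0% of the UMIs of set 1.

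Differences were taken within each set and read in sets with at least 20 members. Ratios in set 1 used 20 UMIs as a minimum, 5 CPM as pseudocount and exact 95% intervals, and the limit for 0 UMIs was 3 UMIs over the group. PCR copies were removed by UMIs, but intervals cover counting error only. Genes named were those of the rule, up to 15 called in each direction ranked by their smallest difference over sets, and 4 per list by median difference; genes such as Pdcd1, Gzma, Gzmk, and those called higher outside that number were added after their values were seen. The members, lists and markers were chosen with earlier results of these data known. Doublets were kept. Scripts were tested on simulated data. Numpy 2.4.6, scipy 1.17.1 and scanpy 1.11.5 were used. Alternatives covered thresholds, depth, cycling, single sets, pseudocount and the choice of other cells.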

Additional observations from a re-analysis of the deposited data

How the results depend on the processing

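Among the named genes, no difference or set 1 ratio past its threshold changed sign under the settings tried, while some that did not pass it changed sign. Signs were followed for 89 differences and 88 set 1 ratios, and not for every gene past the fold in set 1. With granzyme thresholds of 0.5 and 1.5, the member share of CD8 T cells was 8.87% and 2.76%; at 0.5, 21 genes were higher and 2 lower in all 6 sets, and at 1.5, 7 were lower. A difference of 0.15 gave 9 lower, and one of 0.5 gave 9 higher and 1 lower. Leaving out each set in turn gave 35 to 37 higher and 4 to 6 lower. Against others high in Gzmb, 15 were higher and 2 lower, and among noncycling cells with Havcr2, 8 were lower. In set 1, thinning to 1000 UMIs left 623 genes to test, of which 76 were higher and 169 lower. Only 20 of these higher genes and 37 of the lower ones were among the 49 and 125 of the main setting. Pseudocounts of 1 and 20 CPM gave 219 and 27 lower of 1065 genes. Without cycling cells, 208 of 875 genes were lower, 90 of them among the 125. Granzyme thresholds of 0.5 and 1.5 gave 29 higher with 67 lower, and 206 lower, of 1065 genes. With cycling thresholds of 0.5 and 1.5, 58.9% and 24.2% of members were cycling, against 43.9% and 22.8% of the others; the direction turned in sets 4 and 5 at 0.5 and in set 2 at 1.5. The cause of these shifts was not tested. The comparisons with others high in Gzmb or with Havcr2, without cells of other lineages, without Scrublet calls and without the member highest in Gzmb were chosen after seeing the data. No paired analysis was possible because no column is tied to a labelled sample, so the labelled groups cannot be paired; members and others were compared within each set throughout. The 25 members of set 1 limit its ratios, and depth behind sets 2 to 6 is unknown.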
